A study of Mus musculus with 11 samples.

Results

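Ribosome biogenesis and RNA polymerase I were followed here through 48 listed genes, measured on 11 Illumina mouse expression bead arrays of 1 mouse embryonic fibroblast line. All probes of the listed symbols were taken from the authors' normalized table: 45 symbols had a probe, 81 probes in all, of 22491 genes with a probe on the array. A probe was tested where its signal was above background (detection p under 0.05) on at least 2 arrays, and the probe with the highest mean level stood for its gene. That left 43 of the 48 genes, with 71 probes, among 15908 genes tested. No probe was named for Ddx18, Fbl or Npm3, and the probes of Utp18 and Wdr12 were not well above background. Of the 43 genes, 40 were detected on all 11 arrays.

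The cells of every group were p53-/- TSC2-/-, per the labels. They were given siRNA against Crebl2, a gene for a small bZIP-family protein, or against luciferase, a control with no target in the cells, and then 20 nM rapamycin or its vehicle ethanol for 12 h in DMEM with fetal bovine serum. The groups were Crebl2 siRNA with rapamycin (3 arrays), Crebl2 siRNA with ethanol (3), luciferase siRNA with rapamycin (3) and luciferase siRNA with ethanol (2). The labels give 3 days of siRNA and the series text 2.5 days, and that text spells the target Creb2. All arrays come from 1 line, and the labels do not say whether replicates were separate cultures, so the p-values rest on a spread that may be technical.

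Ribosomes are built in the nucleolus. RNA polymerase I transcribes the long ribosomal RNA precursor, small nucleolar RNPs (snoRNPs) modify it, and separate sets of factors fold and cut it into the small and the large subunit. TSC2 holds back the growth kinase complex mTORC1, so cells without it keep mTORC1 active. Rapamycin inhibits mTORC1, which is known to promote ribosomal RNA synthesis, in part through the initiation factor encoded by Rrn3, and the transcription of many genes of this pathway.

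A set of 4 arrays stood apart from the rest: all 3 with Crebl2 siRNA and rapamycin, and replicate 3 with Crebl2 siRNA and ethanol. Log2 levels over the kept probes correlated at 0.989 to 0.995 among these 4 arrays and at 0.984 to 0.996 among the other 7, but only at 0.920 to 0.940 between the sets. The first principal component held 76.2% of the variance and separated the sets. No array with rapamycin and Crebl2 siRNA lies outside the set, so in that group the set and the treatment cannot be told apart, and whether the offset is technical was not tested. Each result is therefore given from all 11 arrays, the main setting, and again without the set or with it as a block. The block rests on 1 array, replicate 3 of Crebl2 siRNA with ethanol, to place the offset.

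The targeted gene itself was dim, detected on 9 of the 11 arrays. The Crebl2 probe had log2 levels of 6.80, 6.88 and 6.72 with Crebl2 siRNA and rapamycin, against 6.87, 7.22 and 7.21 with luciferase siRNA and rapamycin. In ethanol it had 7.08, 6.81 and 6.68 with Crebl2 siRNA, against 7.04 and 7.06 with luciferase siRNA. The levels overlapped in rapamycin and in ethanol, and in both they lay lower with Crebl2 siRNA on most arrays. The differences of -0.30 in rapamycin and -0.19 in ethanol did not pass the limma test (adjusted p = 0.082 and 0.47). All 9 fibroblast markers listed, Col1a1, Vim and Thy1 among them, were detected on all 11 arrays, while Ptprc of leukocytes and Emcn of endothelium were detected on none. Of 5 epithelial markers, Cdh1, Krt8, Krt18 and Krt19 were also detected on all 11. The summed intensity of the epithelial list ran from 3430 to 3847 with Crebl2 siRNA and rapamycin, 2558 to 4248 with Crebl2 siRNA and ethanol, 4638 to 5290 with luciferase siRNA and rapamycin, and 4791 to 4839 with luciferase siRNA and ethanol. That of the fibroblast list ran from 29570 to 31780, 17040 to 28030, 21660 to 21970 and 15740 to 16520 in the same groups. Of the leukocyte and endothelial lists, Cd68, Csf1r, Kdr and Tek were detected on all 11 arrays. The part of these markers in the results that follow was not tested. A Tsc2 probe was detected on all 11 arrays, and whether it lies in the deleted part of the gene was not examined, so it does not check the genotype.

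With luciferase siRNA, rapamycin lowered 15 of the 43 genes and raised none. By step, 6 of 12 small-subunit factors, 5 of 14 large-subunit factors, 2 of 7 snoRNP proteins and 2 of 4 proteins that act at several steps fell, and none of the 6 transcription genes passed the test. These counts take the probe that stood for each gene, and the difference between steps was not tested. Over all genes tested, 4.46% were called lower and 4.8% higher in this comparison. Groups without overlap were common with so few arrays. Of the 43 genes 30 were lower and 4 higher without overlap, with 20.2% and 24.3% of all genes. The median change of the 43 genes was -0.38 on the log2 scale, against 0.02 for all genes. In bulk RNA, fewer cells of a type and less RNA per cell cannot be told apart. Adjusted p-values are those of limma over all kept probes, with a threshold of 0.05. None of the arrays of these 2 groups belongs to the set that stood apart. When only the other 7 arrays were fitted, the changes were the same and 27 genes passed as lower and 2 as higher, with 9.62% and 11.6% of all genes called in those directions. The count rests on the 2 ethanol arrays: with all 11 arrays less replicate 1 or 2 of luciferase siRNA and ethanol, 6 and 7 genes passed, all lower, while the calls over all 15908 genes were 498 and 430, against 1472 with both arrays.

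Among the small-subunit factors, Rrp12 changed most. Its product helps to export precursor subunits from the nucleus, and its log2 level was 9.40, 9.43 and 9.56 with rapamycin, against 10.69 and 10.82 with ethanol. The groups lay more than 1 log2 unit apart and did not overlap, with a change of -1.29 ± 0.093 (SE; adjusted p = 6.51e-05). Rrp9, which binds the U3 snoRNA needed for the early cuts, was at 7.77, 8.10 and 7.87 with rapamycin, against 8.95 and 8.68 with ethanol. All 3 rapamycin arrays were below both ethanol arrays, and the change was -0.90 ± 0.14 (adjusted p = 0.00283). Heatr1, a scaffold protein that joins the precursor while it is still being transcribed, was at 10.34, 10.58 and 10.30 with rapamycin, against 11.21 and 11.27 with ethanol. It changed by -0.83 ± 0.15 (adjusted p = 0.0092), again without overlap. Ltv1, an assembly factor of late small-subunit precursors, fell by 0.80. Wdr43, a partner of Heatr1 in the early complex, fell by 0.66, and Noc4l, a partner of Nop14, fell by 0.53. The 6 that did not pass included Nop14, at 9.08, 9.28 and 9.17 with rapamycin, against 9.85 and 10.02 with ethanol. Its groups did not overlap and its change of -0.76 ± 0.41 missed the threshold with all 11 arrays (adjusted p = 0.368) but passed with the 7 arrays (adjusted p = 7.7e-06). Nob1, the nuclease that makes the final cut of the small-subunit RNA, likewise passed only with the 7 arrays (-0.38). Utp15, Tsr1, Emg1 and Bms1 had changes of -0.27, -0.10, -0.075 and -0.033 that passed in neither fit.

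Among the large-subunit factors, Nop2, a cytosine methyltransferase of ribosomal RNA, had log2 levels of 8.39, 8.81 and 9.01 with rapamycin, against 9.73 and 9.51 with ethanol. The rapamycin arrays were spread out, yet all lay below the ethanol arrays, with a change of -0.88 ± 0.15 (adjusted p = 0.00659). Wdr74, which binds an early large-subunit precursor, was at 10.39, 10.56 and 10.34 with rapamycin, against 11.12 and 11.40 with ethanol. It changed by -0.83 ± 0.20 without overlap (adjusted p = 0.0325). Ebna1bp2, an assembly factor of the same stage, was at 10.09, 10.26 and 10.33 with rapamycin, against 11.04 and 10.96 with ethanol, a change of -0.77 ± 0.13 (adjusted p = 0.00444). Gnl3, the nucleolar GTPase also called nucleostemin, fell by 0.72, and Noc3l, an early assembly factor, fell by 0.49. With the 7 arrays Rrp1b (-0.74), Nip7 (-0.67), Noc2l (-0.65), Bop1 (-0.33) and Brix1 (-0.31) also passed as lower, though another Brix1 probe passed as higher (0.32). Pes1, which forms a complex with Bop1 and Wdr12, had the opposite sign: its level was 10.07, 10.30 and 10.05 with rapamycin, against 9.77 and 9.67 with ethanol, every rapamycin array was above both ethanol arrays, and its change of 0.42 passed only with the 7 arrays (adjusted p = 0.00426). Gnl2 and Rrs1 had changes of 0.23 and -0.19 that passed in neither fit, and Nop16 was not well above background on any array of either group, so no change is given for it.

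Nop56 and Nop58 are the core proteins of the box C/D snoRNPs, which guide methylation of ribosomal RNA. Nop56 was at 9.32, 9.79 and 9.79 with rapamycin, against 10.86 and 11.01 with ethanol, a change of -1.30 ± 0.20 (adjusted p = 0.0031) and the largest of the 43 genes. Nop58 was at 10.33, 10.33 and 10.34 with rapamycin, against 10.95 and 10.89 with ethanol, with almost equal rapamycin arrays, and changed by -0.58 ± 0.08 (adjusted p = 0.00173). Both were without overlap. Of the box H/ACA proteins, which guide pseudouridine formation, none passed with all 11 arrays. Nhp2 (-0.44) and Gar1 (-0.34) passed as lower with the 7 arrays, Nop10 (0.26) did not, and Dkc1, the pseudouridine synthase, was not well above background on any array of either group, so no change is given for it. Nolc1, a chaperone of both classes, had a change of -0.011. Among proteins of several steps, the RNA helicase Ddx21 was at 8.98, 9.17 and 9.24 with rapamycin, against 10.07 and 10.02 with ethanol. It changed by -0.92 ± 0.20 without overlap (adjusted p = 0.0225). Mybbp1a, a nucleolar protein that also binds transcription factors, was at 11.24, 11.47 and 11.40 with rapamycin, against 11.77 and 11.78 with ethanol, a change of -0.41 ± 0.096 (adjusted p = 0.029). Ncl, nucleolin, passed only with the 7 arrays (-0.39). Npm1, nucleophosmin, had a change of -0.069 ± 0.081 and overlapping groups.

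The 6 transcription genes gave a median change of -0.04. Rrn3, whose product brings RNA polymerase I to its promoter, was at 8.71, 9.06 and 9.04 with rapamycin, against 9.27 and 9.33 with ethanol. All rapamycin arrays lay below the ethanol arrays, and the change of -0.36 passed with the 7 arrays (adjusted p = 0.019) but not with all 11 (adjusted p = 0.608). The same held for Polr1b (-0.34), one of the pair of large catalytic subunits of the polymerase. Polr1c, a subunit shared with RNA polymerase III, was at 10.88, 11.06 and 10.98 with rapamycin, against 10.64 and 10.61 with ethanol. Its rapamycin arrays were all higher, and its change of 0.35 also passed only with the 7 arrays (adjusted p = 0.0116). Polr1a, the other large subunit, had a change of -0.23, Ubtf, which coats the ribosomal RNA genes, one of 0.22, and Taf1d, a subunit of the promoter selectivity factor, one of 0.15. None of these 3 passed in either fit on the probe that stood for it, though the other kept Taf1d probe passed as lower in both (-0.53).

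**Figure D1:**
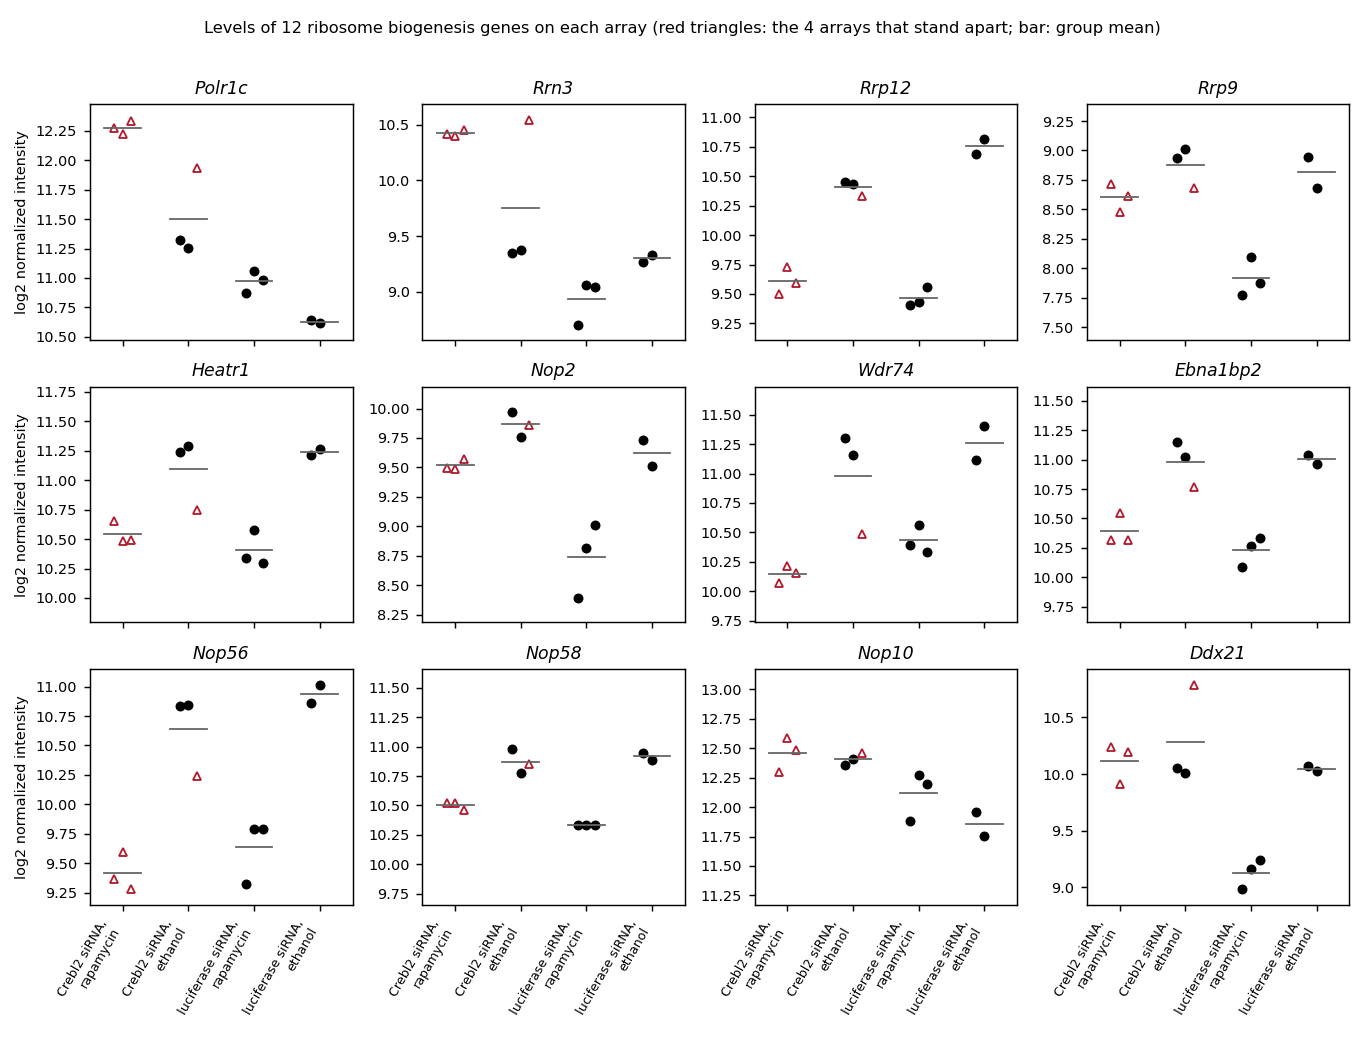
Log2 normalized intensity (vertical axes, each panel on its own range) of 12 genes on each of the 11 arrays, by group, with bars at the group means and red triangles for the 4 arrays that stood apart. Rrp12, Rrp9, Heatr1, Nop2, Wdr74, Ebna1bp2, Nop56, Nop58 and Ddx21 are lower with rapamycin than with ethanol under luciferase siRNA, without overlap. Over all genes in that comparison, 20.2% were lower and 24.3% higher without overlap. In Polr1c, Rrn3 and Ddx21, replicate 3 of Crebl2 siRNA with ethanol lies above its own group.

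Promoters were read for the genes with an entry in the RefSeq table (GRCm38.p6), as the 250 bases before and 50 bases after the annotated start: 42 of the 48 genes matched. The hexamer CACGTG, the core bound by MYC and related factors and its own reverse complement, was found in 8 of these 42 (19%) and in 2187 of 27025 genes with a promoter (8.09%). Of the genes lower with rapamycin under luciferase siRNA 4 of 14 held it (28.6%), as did 3 of the 24 other tested genes (12.5%). The heptamer CCGGAAG, on either strand, the core of many ETS-family sites, was found in 18 of 42 (42.9%) and in 9.93% of all genes. It was found in 6 of 14 of the lower genes (42.9%) and in 11 of 24 of the others (45.8%). These matches are a description of letters in a window, and no binding was measured. The sequences shown are those of the 4 lower genes that hold CACGTG, of Nop56, which fell most and holds none, and of Rrn3, which holds 2. Capitals mark CACGTG. Nop2 lies at chr6:125131633-125131932 (plus strand), with the hexamer starting 60 bases before the start. The other windows are Ltv1 at chr10:13193088-13193387 (minus strand), Wdr43 at chr17:71615965-71616264 (plus strand), Mybbp1a at chr11:72441077-72441376 (plus strand), Rrn3 at chr16:13780449-13780748 (plus strand) and Nop56 at chr2:130274162-130274461 (plus strand).
Nop2: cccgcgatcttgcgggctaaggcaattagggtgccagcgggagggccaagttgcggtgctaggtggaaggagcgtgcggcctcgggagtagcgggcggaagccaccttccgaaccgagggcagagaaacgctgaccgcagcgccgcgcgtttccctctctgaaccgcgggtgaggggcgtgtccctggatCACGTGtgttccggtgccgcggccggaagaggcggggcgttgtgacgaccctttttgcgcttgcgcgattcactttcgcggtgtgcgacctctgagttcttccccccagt
Ltv1: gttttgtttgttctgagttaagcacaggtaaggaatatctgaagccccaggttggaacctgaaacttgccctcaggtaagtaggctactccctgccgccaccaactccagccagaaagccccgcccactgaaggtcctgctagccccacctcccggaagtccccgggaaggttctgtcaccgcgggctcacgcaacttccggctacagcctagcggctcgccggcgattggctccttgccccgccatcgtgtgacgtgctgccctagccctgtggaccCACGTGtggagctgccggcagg
Wdr43: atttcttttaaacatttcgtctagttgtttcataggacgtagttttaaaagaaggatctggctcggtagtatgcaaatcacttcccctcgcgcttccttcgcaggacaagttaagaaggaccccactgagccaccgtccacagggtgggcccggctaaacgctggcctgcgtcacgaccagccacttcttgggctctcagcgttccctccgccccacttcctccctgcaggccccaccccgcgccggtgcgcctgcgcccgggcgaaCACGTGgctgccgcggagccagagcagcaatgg
Mybbp1a: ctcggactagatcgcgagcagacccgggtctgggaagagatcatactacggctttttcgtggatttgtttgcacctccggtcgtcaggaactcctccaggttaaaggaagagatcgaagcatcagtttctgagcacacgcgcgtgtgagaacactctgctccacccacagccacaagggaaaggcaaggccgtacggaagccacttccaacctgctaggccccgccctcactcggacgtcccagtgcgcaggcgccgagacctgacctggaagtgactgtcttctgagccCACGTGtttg
Rrn3: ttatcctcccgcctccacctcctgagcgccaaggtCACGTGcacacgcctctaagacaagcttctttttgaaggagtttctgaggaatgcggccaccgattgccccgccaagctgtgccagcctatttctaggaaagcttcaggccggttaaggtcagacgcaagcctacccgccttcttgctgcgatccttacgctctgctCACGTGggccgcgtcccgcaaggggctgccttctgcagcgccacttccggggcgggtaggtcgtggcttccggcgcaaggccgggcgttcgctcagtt
Nop56: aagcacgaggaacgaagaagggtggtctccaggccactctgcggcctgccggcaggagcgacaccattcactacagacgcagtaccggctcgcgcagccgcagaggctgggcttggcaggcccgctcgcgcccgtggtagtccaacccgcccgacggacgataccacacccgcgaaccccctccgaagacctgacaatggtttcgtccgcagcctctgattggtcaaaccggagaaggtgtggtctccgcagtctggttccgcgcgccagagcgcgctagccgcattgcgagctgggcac
In Nop2 the hexamer lies before the start, and in Ltv1, Wdr43 and Mybbp1a it lies after it, within the first 50 transcribed bases. In Rrn3 both copies lie before it. Beside these sequences stand the changes of -0.88 for Nop2, -0.80 for Ltv1, -0.66 for Wdr43, -0.41 for Mybbp1a, -0.36 for Rrn3, which did not pass with all 11 arrays, and -1.30 for Nop56.

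With Crebl2 siRNA, rapamycin lowered 12 of the 43 genes and raised 1, with 5.89% and 4.78% of all genes called lower and higher. By step, 2 of 6 transcription genes, 3 of 12 small-subunit, 4 of 14 large-subunit and 3 of 7 snoRNP genes fell, and 1 transcription gene rose. The lower genes were Nop56 (-1.23), Rrp1b (-0.88), Wdr74 (-0.83), Rrp12 (-0.80), Nhp2 (-0.67), Ebna1bp2 (-0.58), Heatr1 (-0.55), Polr1a (-0.46), Gnl3 (-0.45), Noc4l (-0.44), Polr1b (-0.38) and Nop58 (-0.37). Of these 12, 8 were also among the 15 that fell with luciferase siRNA, and 26 of the 43 genes had a negative change in both comparisons. The share of all genes in either overlap was not counted. Taken singly, 36 of the 43 genes were negative with luciferase siRNA and 28 with Crebl2 siRNA, against 7363 and 8691 of all 15908 genes. The comparisons share no arrays, but they share the fit's estimate of the spread and the arrays' normalization. With Crebl2 siRNA, 17 of the 43 genes were lower and 2 higher without overlap, with 13.9% and 11.6% of all genes. This one sets 3 arrays of the set that stood apart against a group that holds 1, and its counts depend on that array. With the set as a block, which compares the rapamycin arrays in effect with replicate 3 alone, 8 genes were lower and none higher (2.47% and 4.13% of all genes), and without replicate 3 the counts were 22 lower and 11 higher (22.7% and 15.9% of all genes).

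Rrp12 and Nop56 kept their decrease in each of these fits. Rrp12 was at 9.50, 9.73 and 9.60 with rapamycin, against 10.45, 10.43 and 10.33 with ethanol. The groups did not overlap, replicate 3 of ethanol was close to the other 2, and the change was -0.80 ± 0.083 (adjusted p = 0.000952), or -0.73 with the block (adjusted p = 0.000568). Nop56 was at 9.37, 9.60 and 9.28 with rapamycin, against 10.83, 10.85 and 10.24 with ethanol. Replicate 3 was the lowest of the ethanol arrays but above all rapamycin arrays, and the change was -1.23 ± 0.18 (adjusted p = 0.00483), or -0.83 with the block (adjusted p = 0.00143). The other 6 genes lower with the block were Dkc1 (-0.70), Ddx21 (-0.67), Nop14 (-0.52), Rrs1 (-0.46), Tsr1 (-0.45) and Utp15 (-0.43), none of which passed with all 11 arrays and no block. Without replicate 3, Rrs1 (2.48), Nop14 (1.21), Tsr1 (1.07) and Utp15 (0.50) passed as higher, the opposite direction. Dkc1 was then not well above background on the ethanol arrays left, so no change is given for it, and Ddx21 had a change of 0.084 that did not pass.

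In Heatr1, Wdr74, Rrp1b and Nhp2, replicate 3 lay below the other ethanol arrays. Heatr1 was at 10.66, 10.48 and 10.49 with rapamycin, against 11.24, 11.29 and 10.74 with ethanol. Its change of -0.55 ± 0.14 (adjusted p = 0.0366) was -0.20 with the block (adjusted p = 0.481). Wdr74 was at 10.07, 10.21 and 10.16 with rapamycin, against 11.30, 11.16 and 10.48 with ethanol, where replicate 3 was well below the other 2. It changed by -0.83 ± 0.18 (adjusted p = 0.0207), and by -0.34 with the block (adjusted p = 0.155). Rrp1b, a nucleolar regulator of protein phosphatase, was at 8.04, 8.16 and 8.41 with rapamycin, against 9.19, 9.35 and 8.73 with ethanol. Its groups did not overlap, and its change of -0.88 ± 0.19 was -0.52 with the block (adjusted p = 0.0779). Nhp2 was at 11.53, 11.62 and 11.44 with rapamycin, against 12.26, 12.42 and 11.92 with ethanol, again without overlap, and its change of -0.67 ± 0.12 was -0.39 with the block (adjusted p = 0.064).

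Polr1a was at 11.21, 11.21 and 11.05 with rapamycin, against 11.72, 11.76 and 11.35 with ethanol. All rapamycin arrays were lower, and the change of -0.46 ± 0.11 (adjusted p = 0.031) was -0.19 with the block (adjusted p = 0.473). Polr1c was the gene that rose, by 0.77 ± 0.15 (adjusted p = 0.0144). It was at 12.27, 12.22 and 12.33 with rapamycin, against 11.32, 11.25 and 11.94 with ethanol, so its increase was 0.34 with the block and no longer passed (adjusted p = 0.0962). Its change with luciferase siRNA was 0.35.

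**Figure D2:**
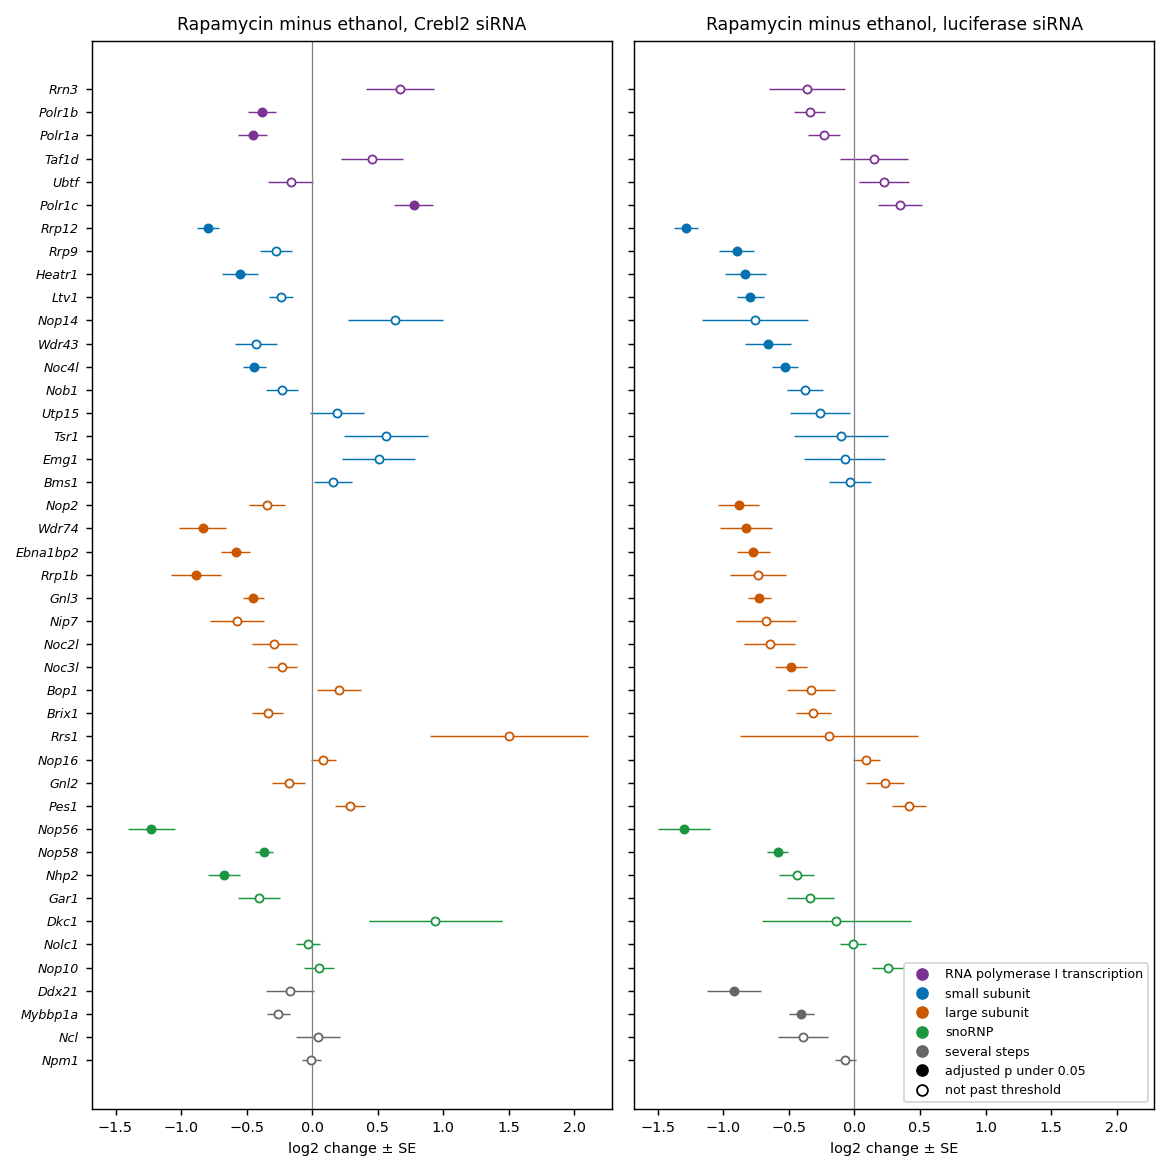
Change of the log2 level with rapamycin (horizontal axes, rapamycin minus ethanol, ± SE from all 11 arrays) for 43 genes ordered by step, with Crebl2 siRNA on the left and luciferase siRNA on the right. Filled points passed an adjusted p of 0.05: 12 lower and 1 higher with Crebl2 siRNA, 15 lower and none higher with luciferase siRNA. Rrs1, Dkc1 and Nop14 have the widest error bars.

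In ethanol, on the probe that stood for each gene, Crebl2 siRNA raised 2 of the 43 genes and lowered none. Of all genes, 1.32% were called higher and 5.32% lower. Among the other probes, 1 each of Rrp1b (-0.75), Taf1d (-0.43) and Mybbp1a (-0.40) was called lower, and the other Nop10 probe (0.13) was not called. Without overlap, 14 of the 43 were higher and 6 lower, with 12.5% and 24.9% of all genes. This comparison shares its luciferase arrays with the rapamycin comparison under that siRNA, and its Crebl2 arrays with the rapamycin comparison under Crebl2 siRNA. The next comparison, between the siRNAs in rapamycin, takes its groups from those same rapamycin comparisons. Polr1c was at 11.32, 11.25 and 11.94 with Crebl2 siRNA, against 10.64 and 10.61 with luciferase siRNA. All 3 arrays were higher, replicate 3 most, and the change was 0.88 ± 0.17 (adjusted p = 0.0143). It was 0.66 with the 7 arrays, still past the threshold (adjusted p = 0.00018). Nop10, the smallest box H/ACA protein, was at 12.36, 12.41 and 12.46 with Crebl2 siRNA, against 11.96 and 11.76 with luciferase siRNA. The groups did not overlap, and the change was 0.55 ± 0.13 (adjusted p = 0.0324), or 0.53 with the 7 arrays (adjusted p = 0.0063). With the 7 arrays Gnl2 (0.52) and Pes1 (0.38) passed too, with 4.83% of all genes called higher and 7.69% lower. When luciferase replicate 1 or 2 was left out, none of the 43 genes passed in limma (5 and 5 had an unadjusted p under 0.05), and 302 and 166 of all 15908 genes did, against 1056 with both. Among the probes that stood for the genes, that of Rrp12 was the lower one closest to the threshold, though it did not pass. It was at 10.45, 10.43 and 10.33 with Crebl2 siRNA, against 10.69 and 10.82 with luciferase siRNA, without overlap. Its change of -0.35 ± 0.093 had an adjusted p of 0.0577 (limma).

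In rapamycin, 20 of the 43 genes were higher with Crebl2 siRNA and none lower, with 11.8% and 20.7% of all genes called in those directions. Without overlap, 24 were higher and 3 lower, with 16.7% and 34% of all genes. All 3 Crebl2 arrays here belong to the set that stood apart and none of the luciferase arrays does. Dkc1 was detected on the 4 arrays of the set and no other, so it passed the filter only through them. The probe that stood for a gene was chosen on all 11 arrays, the set included. With luciferase siRNA, the other Tsr1 probe had the higher mean log2 level in rapamycin (8.16 against 7.77) and ethanol (8.04 against 7.87). The same held for Ncl (8.81 against 8.59, and 9.22 against 8.98). The counts by step were 3 of 6 transcription genes, 6 of 12 small-subunit, 6 of 14 large-subunit, 2 of 7 snoRNP and 3 of 4 genes of several steps. The differences were Rrs1 (2.83), Nop14 (1.68), Rrn3 (1.49), Tsr1 (1.43), Polr1c (1.30), Emg1 (1.25), Ncl (0.99), Ddx21 (0.99), Utp15 (0.88), Nop2 (0.78), Bop1 (0.74), Taf1d (0.72), Rrp9 (0.69), Ltv1 (0.52), Mybbp1a (0.41), Noc3l (0.38), Nop10 (0.34), Pes1 (0.34) and Gnl3 (0.24), and Dkc1. With the set as a block, 7 were higher and 1 lower (1.04% and 1.53% of all genes); the lower one was Dkc1, which was not well above background on the luciferase arrays, so nothing is read from that call. Polr1c, Nop2 and Rrp9 were the only ones of the 20 to keep their call as higher. Of the other 17, 11 kept their sign but not the call and 6, Dkc1 among them, changed sign.

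Rrs1, an assembly factor that brings the small ribosomal RNA of the large subunit into its precursor, had the largest fitted difference. Its level was 9.64, 9.76 and 9.65 with Crebl2 siRNA and rapamycin, 7.16, 7.25 and 10.14 with Crebl2 siRNA and ethanol, 6.92, 6.82 and 6.82 with luciferase siRNA and rapamycin, and 7.09 and 7.0 with luciferase siRNA and ethanol. The set of 4 arrays, all with Crebl2 siRNA, was high and all other arrays were low, in ethanol as in rapamycin. The difference in rapamycin was 2.83 ± 0.60 (adjusted p = 0.00685), and -0.11 with the block (adjusted p = 0.832). Nop14 was at 10.94, 10.83 and 10.80 with Crebl2 siRNA and rapamycin, 9.70, 9.60 and 11.37 with Crebl2 siRNA and ethanol, 9.08, 9.28 and 9.17 with luciferase siRNA and rapamycin, and 9.85 and 10.02 with luciferase siRNA and ethanol. It differed by 1.68 ± 0.36, and by -0.048 with the block. Dkc1 was at 8.36, 8.33 and 8.39 with Crebl2 siRNA and rapamycin, 6.62, 6.58 and 9.06 with Crebl2 siRNA and ethanol, 6.38, 6.53 and 6.48 with luciferase siRNA and rapamycin, and 6.63 and 6.57 with luciferase siRNA and ethanol. It was detected on the 4 arrays of the set and on no other, which bounds its difference in rapamycin as at least 3.01-fold higher. The probe passed the filter only through the arrays where it was high, so nothing is read from its call. No value is given with the block, which would rest on arrays where the probe was not well above background. Tsr1, a factor of late small-subunit precursors, was at 9.19, 9.26 and 9.14 with Crebl2 siRNA and rapamycin, 8.11, 8.13 and 9.65 with Crebl2 siRNA and ethanol, 7.66, 7.79 and 7.85 with luciferase siRNA and rapamycin, and 7.80 and 7.94 with luciferase siRNA and ethanol. Its difference of 1.43 ± 0.32 was -0.093 with the block.

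Rrn3 was at 10.41, 10.40 and 10.46 with Crebl2 siRNA and rapamycin, 9.35, 9.38 and 10.54 with Crebl2 siRNA and ethanol, 8.71, 9.06 and 9.04 with luciferase siRNA and rapamycin, and 9.27 and 9.33 with luciferase siRNA and ethanol. It followed the set in the same way: the difference of 1.49 ± 0.26 in rapamycin (adjusted p = 0.00339) was 0.30 with the block (adjusted p = 0.45). Ncl was at 9.61, 9.55 and 9.59 with Crebl2 siRNA and rapamycin, 9.29, 9.42 and 9.91 with Crebl2 siRNA and ethanol, 8.32, 8.87 and 8.58 with luciferase siRNA and rapamycin, and 9.10 and 8.87 with luciferase siRNA and ethanol. Its difference of 0.99 ± 0.17 was 0.43 with the block (adjusted p = 0.308). Ddx21 was at 10.24, 9.92 and 10.20 with Crebl2 siRNA and rapamycin, against 8.98, 9.17 and 9.24 with luciferase siRNA and rapamycin, and its highest array of all was replicate 3 of Crebl2 siRNA with ethanol (10.79). The difference of 0.99 ± 0.18 was 0.23 with the block (adjusted p = 0.63). Nop10 was at 12.30, 12.59 and 12.49 with Crebl2 siRNA and rapamycin, against 11.88, 12.27 and 12.20 with luciferase siRNA and rapamycin. Its groups did not overlap, and it differed by 0.34 ± 0.11, and by 0.27 with the block (adjusted p = 0.58).

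Across the 43 genes, the difference between siRNAs in rapamycin ran with the offset of replicate 3 from the mean of replicates 1 and 2 within the ethanol arrays of Crebl2 siRNA, with Pearson's r = 0.946 and Spearman's rho = 0.905. These points share the arrays' normalization and the shape of the offset, and over all genes the values were 0.900 and 0.689. Dkc1, detected only on the set of 4 arrays, is among the points. In 16 of the 20 genes called higher, replicate 3 was above both other ethanol arrays. The share of all genes with replicate 3 above both was not counted. The median offset was 0.64 for those 20 genes, -0.41 for the 23 not called and -0.098 for all genes.

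**Figure D3:**
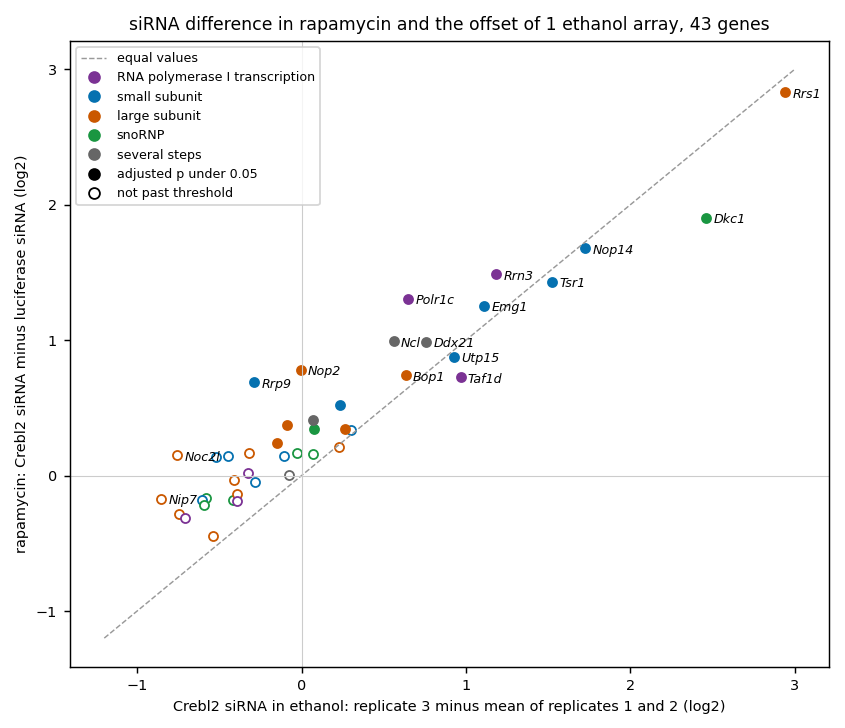
Difference between Crebl2 and luciferase siRNA in rapamycin (vertical axis, log2) against the offset of replicate 3 from the mean of replicates 1 and 2 under Crebl2 siRNA and ethanol (horizontal axis, log2), 1 point for each of 43 genes coloured by step. Most filled points, the genes past an adjusted p of 0.05, lie to the right of 0, with Rrs1 and Dkc1 farthest out. Rrp9 and Nop2 lie above the line of equal values, at an offset near or below 0.

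Polr1c, Nop2 and Rrp9 kept their call with the block. Polr1c was at 12.27, 12.22 and 12.33 with Crebl2 siRNA and rapamycin, against 10.88, 11.06 and 10.98 with luciferase siRNA and rapamycin. Its difference of 1.30 ± 0.15 (adjusted p = 0.000605) was 0.65 with the block (adjusted p = 0.0186). Nop2 was at 9.50, 9.48 and 9.57 with Crebl2 siRNA and rapamycin, against 8.39, 8.81 and 9.01 with luciferase siRNA and rapamycin, and replicate 3 in ethanol was level with its group. Its difference was 0.78 in both fits (adjusted p = 0.00358 and, with the block, 0.0409). Its other 2 kept probes had differences of 0.20 and -0.16 that did not pass with all 11 arrays. Rrp9 was at 8.72, 8.48 and 8.62 with Crebl2 siRNA and rapamycin, against 7.77, 8.10 and 7.87 with luciferase siRNA and rapamycin, and differed by 0.69 or, with the block, 0.97. With the block Noc2l (0.91), Nip7 (0.68), Heatr1 (0.66) and Nob1 (0.59) were also called higher, none of which passed without it.

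Whether rapamycin acted differently under the siRNAs was tested as an interaction. None of the 43 genes passed with all 11 arrays in limma, 8 had an unadjusted p under 0.05, and 0.151% of all genes were called as positive and 0.157% as negative. With the block 3 passed as positive, meaning a rapamycin change that was higher with Crebl2 siRNA: Noc2l (0.86), Rrp9 (0.82) and Heatr1 (0.63), and none as negative, with 1.19% and 0.622% of all genes called in those directions. With Crebl2 siRNA, Rrp9 was at 8.72, 8.48 and 8.62 in rapamycin, against 8.94, 9.01 and 8.69 in ethanol. With luciferase siRNA, Rrp9 was at 7.77, 8.10 and 7.87 in rapamycin, against 8.95 and 8.68 in ethanol. All its arrays with Crebl2 siRNA and rapamycin belong to the set, so these levels cannot tell an interaction from the offset. Its rapamycin changes were -0.27 with Crebl2 siRNA and -0.90 with luciferase siRNA, from all 11 arrays. Without replicate 3 of Crebl2 siRNA and ethanol, 16 genes passed as positive and 3 as negative, with 11.6% and 15.6% of all genes.

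**Figure D4:**
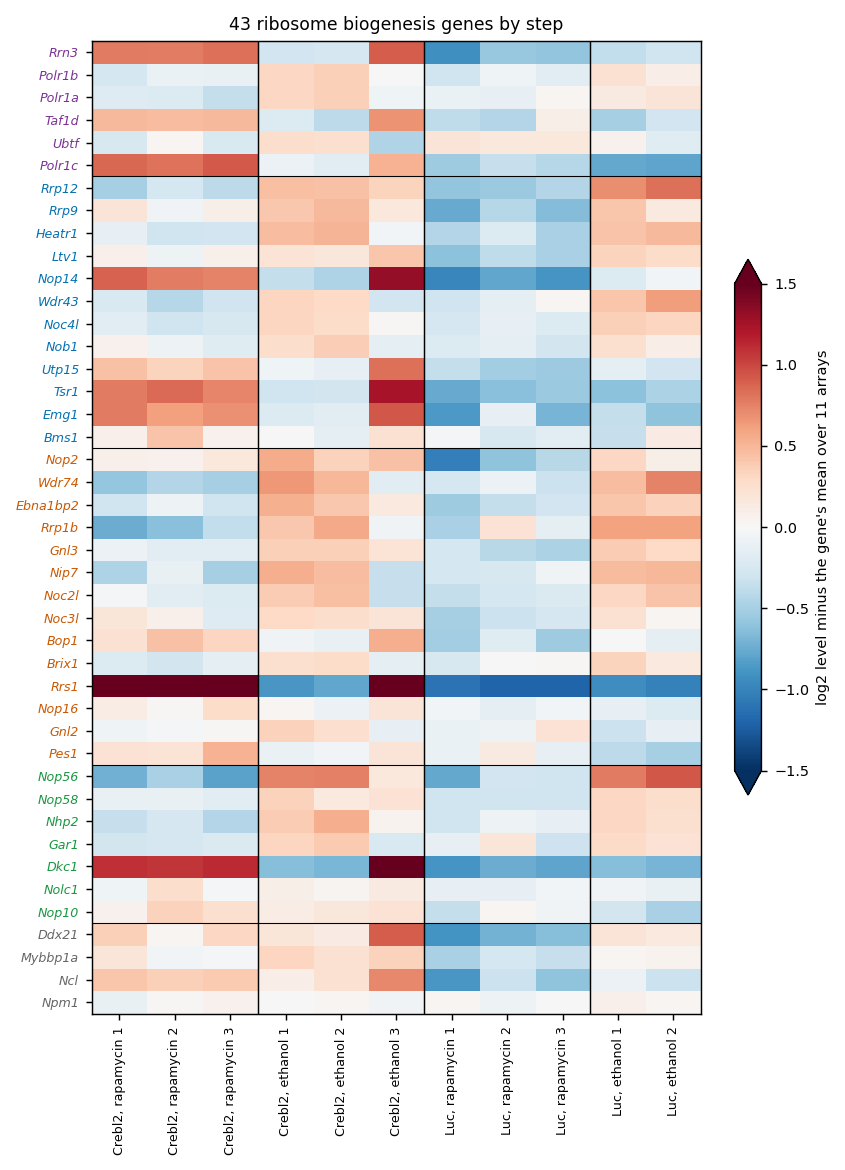
Log2 level of each of 43 genes minus its mean over the 11 arrays (colour), with genes in rows by step and arrays in columns by group. Rrs1, Dkc1, Nop14, Tsr1 and Rrn3 are red on the 3 arrays of Crebl2 siRNA with rapamycin and on replicate 3 of Crebl2 siRNA with ethanol. Rrp12 and Nop56 are blue on rapamycin arrays of both siRNAs and red on luciferase siRNA with ethanol.

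Of the 43 genes, 20 had more than 1 kept probe, and in 10 of them the probes differed in call with rapamycin under luciferase siRNA. In Noc4l, Ddx21, Mybbp1a, Heatr1, Nop2 and Ebna1bp2 all probes had negative changes and only some passed. Rrp1b passed on another probe (-1.14) than the one that stood for it (-0.74), and Ncl and Brix1 each passed on 1 other probe, at -0.41 and -0.48. A further Brix1 probe had a change of 0.32 that did not pass. Taf1d passed as lower on its other probe (-0.53), against 0.15 on the probe that stood for it. With luciferase siRNA, the other probe had the higher mean log2 level in ethanol (8.54 against 8.24) and the lower one in rapamycin (8.01 against 8.39). The probes of 10 genes differed in call with rapamycin under Crebl2 siRNA. With Crebl2 siRNA in ethanol those of 4 did: Nop10, Mybbp1a, Taf1d and Rrp1b.

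The widest gaps between probes were in the difference between siRNAs in rapamycin, where 12 of 20 genes had probes that differed in call. Gnl2, a GTPase of the large-subunit pathway, is the plainest case. The probe that stood for it was at 9.24, 9.29 and 9.32 with Crebl2 siRNA and rapamycin, 9.65, 9.55 and 9.19 with Crebl2 siRNA and ethanol, 9.20, 9.23 and 9.52 with luciferase siRNA and rapamycin and 8.99 and 9.19 with luciferase siRNA and ethanol. The other was at 10.63, 10.40 and 10.05 with Crebl2 siRNA and rapamycin, 7.68, 7.79 and 10.32 with Crebl2 siRNA and ethanol, 7.41, 7.68 and 7.20 with luciferase siRNA and rapamycin, and 7.46 and 7.46 with luciferase siRNA and ethanol. Only the other probe followed the set of 4 arrays, and their differences in rapamycin were -0.034 and 2.93. Tsr1 had 1.43 on the probe that stood for it and -0.0050 on its other probe, and Ncl had 0.99 and 0.073. Ddx21 had 0.99 and 0.0062, and Taf1d had 0.72 and -0.091. Mybbp1a had opposite calls: 2 of its 4 kept probes were higher (0.41 and 0.70) and 1 was lower (-0.47). The genes Bop1, Nop2, Gnl3, Nop10, Nip7 and Brix1 each had probes on both sides of the threshold.

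**Figure D5:**
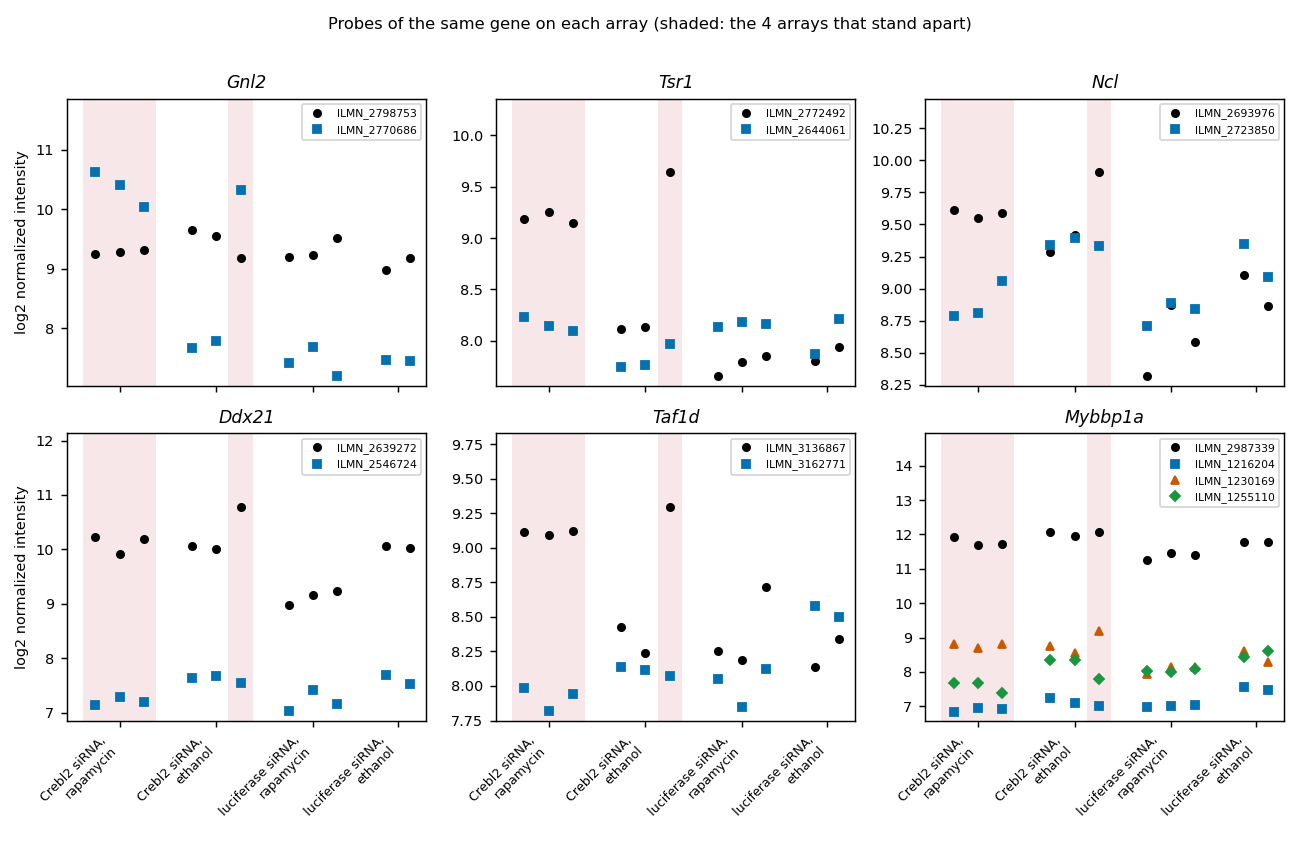
Log2 normalized intensity of every kept probe of 6 genes on each of the 11 arrays, by group, with shading on the 4 arrays that stood apart and a symbol for each probe. In Gnl2, Tsr1, Ncl and Taf1d 1 probe is high on the shaded arrays and the other is not. In Ddx21 the brighter probe is higher on the shaded than on the unshaded rapamycin arrays. Its shaded rapamycin arrays lie near the unshaded ethanol arrays. Levels of different probes are not comparable with each other.

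A wider list of 99 other genes of the pathway, 84 of them tested, gave 16 lower and none higher with rapamycin under luciferase siRNA, and 34 lower and 3 higher with the 7 arrays. Over all genes, 4.46% were called lower and 4.8% higher, and 9.62% and 11.6% with the 7 arrays. Its median change was -0.23. The largest decreases were in Tcof1, which couples ribosomal RNA transcription to processing (-1.11), the GTPase gene Gtpbp4 (-0.92), Ppan (-0.88), a large-subunit factor, and the RNA exosome subunit gene Exosc2 (-0.83). Tcof1 was at 8.33, 8.94 and 8.32 with rapamycin, against 9.55 and 9.73 with ethanol, without overlap. With Crebl2 siRNA, 14 were lower with rapamycin and none higher, led by Exosc2 (-0.94), Znhit3 (-0.88), Mrto4 (-0.85) and Ruvbl2 (-0.78), and 5 were lower and 2 higher with the block. Of all genes, 5.89% were called lower and 4.78% higher there, and 2.47% and 4.13% with the block. Crebl2 siRNA in ethanol lowered Ddx10 (-0.40) and Gtpbp4 (-0.40), 2.38% of the 84 genes, a share below the 5.32% of all genes called lower. In rapamycin, 19 were higher (22.6%) and 7 lower (8.33%) with Crebl2 siRNA, against 11.8% and 20.7% of all genes. The share called lower was thus below that of all genes. Las1l (2.52) and Pak1ip1 (1.80) were among the higher ones. Riok2 and Exosc3 were also called higher but were not well above background on any luciferase array, so no difference is given for them. Las1l was at 10.24, 10.20 and 10.14 with Crebl2 siRNA and rapamycin, 7.76, 7.51 and 10.35 with Crebl2 siRNA and ethanol, 7.85, 7.68 and 7.50 with luciferase siRNA and rapamycin, and 7.67 and 7.66 with luciferase siRNA and ethanol, so it too was high on the set of 4 arrays. With the block the differences were -0.20 for Las1l and -0.00097 for Pak1ip1, and 2 of the 84 genes were called, both higher. Over all genes, 1.04% were called higher and 1.53% lower in that fit.

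All changes are differences of log2 intensity from which background was not subtracted, which understates changes of dim probes such as Nop16. The arrays were normalized to near equal medians, so a change shared by all transcripts would not show. Transcript levels were measured, not ribosomal RNA or ribosomes.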

How the data were processed

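Total RNA of 1 fibroblast line was amplified to biotin-labelled cRNA and read with Cy3-streptavidin on Illumina mouse bead arrays, per the labels' protocols. The intensity values were normalized between arrays by the authors before deposit, on a linear scale with background not subtracted. The sources used here give neither the software nor the normalization method. Each value has a detection p-value beside it, per the file headers. Array medians ran from 110.52 to 112.408. On each array 46.9% to 51.2% of its 46237 probes had a detection p under 0.05. Their number, 11, limits the precision. A second deposited table, not normalized, was not used, because its values did not match by probe identifier (r from -0.00964 to -0.00628).

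Values were taken to log2, and 28936 probes detected on at least 2 arrays were fitted with limma 3.58.1 (R 4.3.3, with the data.table package at version 1.17.8): 4 group means over all 11 arrays, empirical Bayes, and Benjamini-Hochberg adjustment over all kept probes. The fit was tested on simulated data with independent noise, for rapamycin with luciferase siRNA only. The simulation held no offset of 4 arrays, so it does not check the fits under that offset. The set of 4 arrays was entered as a fixed block, or left out (7 arrays), as alternatives. Replicate numbers are shared between groups, but of 15 same-numbered pairs 1 correlated over 0.1 in its deviations from the group means (r from -0.106 to 0.146), so the numbers were not taken to pair the samples. What a replicate is (culture, extract or array) is not stated in the labels. Motifs and figures were made with Python 3.11.15, pandas 2.3.3 and matplotlib 3.10.9.

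The 48 genes and the other gene lists were chosen with earlier results of these data known. Each of the 48 genes past the threshold with all 11 arrays is named, and of the wider list up to 4 in each comparison. Values on every array are given for up to 3 genes a step with the largest change with rapamycin under luciferase siRNA, and up to 2 a step in the other comparisons, and for some further genes chosen after their values were seen.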

Additional observations from a re-analysis of the deposited data

How the results depend on the processing

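The number of the 43 genes called moved with the arrays used, and so did the calls over all 15908 genes. With rapamycin under luciferase siRNA, 15 were called, against 27 with array weights, 29 with the set of 4 arrays as a block, 29 in the 7 other arrays, 26 with only the groups compared and 11 with a replicate block. Over all genes the calls were 1472, against 3099, 3414, 3376, 3110 and 1162. Leaving out 1 array at a time gave 6 to 29: 6 and 7 without replicates 1 and 2 of luciferase siRNA and ethanol, and 29 without replicate 3 of Crebl2 siRNA and ethanol (498, 430 and 3414 over all genes). With rapamycin under Crebl2 siRNA, 13 were called, against 8 with neqc background correction, 34 with array weights, 8 with the 4 arrays as a block, 2 with only the groups compared and 12 with a replicate block (1698 over all genes, against 1045, 6292, 1050, 167 and 1720). Leaving out 1 array gave 4 to 33, with 33 without replicate 3 of ethanol (6154 over all genes), 4 and 5 without replicates 1 and 2 of ethanol (459 and 470), and 5, 7 and 5 without replicates 1, 2 and 3 of rapamycin (507, 620 and 532). For Crebl2 siRNA in ethanol, 2 were called, against 1 with neqc, 5 with array weights, 4 with the 4 arrays as a block, 4 in the 7 other arrays, 1 with a replicate block and 0 with only the groups compared (limma, 6 at an unadjusted p under 0.05); over all genes 1056, against 475, 2241, 2015, 1992, 674 and 0. Leaving out 1 array gave 0 to 4, with 0 without luciferase replicate 1 or 2 (302 and 166 over all genes). For Crebl2 siRNA in rapamycin, 20 were called, against 8 with the 4 arrays as a block and 19 with a replicate block, and 15 to 24 when 1 array was left out. Over all genes it was 5174, against 409 with the 4 arrays as a block. The block reversed Nop14 (-0.048), Taf1d (-0.24), Tsr1 (-0.093), Rrs1 (-0.11), Utp15 (-0.048) and the fitted value of Dkc1 (-0.56), which means nothing there because its luciferase arrays are not well above background. For the interaction, 0 were called in limma, against 17 with array weights, 3 with the 4 arrays as a block, 0 with a replicate block and 0 to 19 when 1 array was left out, with 49 over all genes, against 4145 with array weights and 289 with the 4 arrays as a block. Median scaling, quantile normalization, the 2 other filters on dim probes and 1 probe a gene kept every count within 1.5 times. With neqc and with detection at p under 0.01 on at least 6 arrays, the median of all genes for Crebl2 siRNA in rapamycin was -0.17 and -0.15, against -0.08. The causes were not tested. Dim probes such as Nop16 and Dkc1 give bounds or understated changes.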
